A study of Mus musculus with 8 samples.

Results

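The genes described here are 7 genes of pigment cells, Mitf, Tyr, Tyrp1, Dct, Gpr143, Slc45a2 and Mlana, measured in embryonic mouse lenses. Every probe set that the platform annotation assigns to 1 of these genes alone was taken, which gave 12 probe sets of 22626 and 6 of the 7 genes. No probe set names Mlana alone, and Mlana was not analysed here.

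Lens samples at embryonic day 15.5 (E15.5), 4 wild type and 4 dnBrg1, were compared on microarrays. The question was what changes in gene expression when the activity of the chromatin remodelling enzyme Brg1 is lowered in lens fiber cells. Both groups were on a mixed strain background, and the wild type samples came from littermates. According to the methods, the transgene was injected into fertilized oocytes of the FVB/N strain. The dnBrg1 embryos carried a transgene in which the αA-crystallin promoter drives a dominant-negative, ATPase-deficient Brg1. All of them came from a single founder line, whose founder is described as heterozygous. That promoter is active in postmitotic lens fiber cells, and neither the labels nor the methods place the transgene in pigment cells. Each sample was a distinct embryonic lens preparation, from which 50 ng of total RNA was amplified before hybridisation. The descriptions of dnBrg1 replicates 3 and 4 name total RNA and those of the other samples name polysome-bound RNA, although the molecule given for every sample is total RNA. Because of this difference, comparisons were also made with each pair of dnBrg1 samples alone.

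Pigment is made in melanosomes, organelles related to lysosomes. In the eye they are found in the retinal pigment epithelium, which arises from the optic cup, and in melanocytes of neural crest origin. Mitf is the basic helix-loop-helix transcription factor that directs pigment cell development. Tyr (tyrosinase) begins melanin synthesis from tyrosine, and Dct (dopachrome tautomerase) and Tyrp1 (tyrosinase-related protein) act at later steps. Gpr143, the ocular albinism receptor, lies in the melanosome membrane, Slc45a2 is a transporter needed for normal melanin synthesis, and Mlana is a small melanosome protein. The lens itself forms no pigment, so transcripts of these genes in a lens sample may come from other cells of the eye. In such samples, fewer cells of a type and less RNA per cell cannot be told apart.

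The control regions of 3 of the enzyme genes hold a shared sequence, which is shown here. Every probe set of these genes was highest in the same sample of each group, as were those of Gpr143 and Slc45a2, for which no window was found. A link between the sequence and this pattern was not tested. RefSeq promoter windows of the GRCm38.p6 assembly, each running from 250 bases before to 50 bases after a transcript start, were found for 4 of the 7 genes. The letters CATGTG, the E-box core to which Mitf is known to bind, were searched on both strands. The 250 bases before the start are given 5′ to 3′ in the direction of transcription with each match on either strand in capitals. They lie at chr7:87493513-87493762 on the minus strand for Tyr, chr4:80833963-80834212 on the plus strand for Tyrp1 and chr14:118052247-118052496 on the minus strand for Dct.
Tyr: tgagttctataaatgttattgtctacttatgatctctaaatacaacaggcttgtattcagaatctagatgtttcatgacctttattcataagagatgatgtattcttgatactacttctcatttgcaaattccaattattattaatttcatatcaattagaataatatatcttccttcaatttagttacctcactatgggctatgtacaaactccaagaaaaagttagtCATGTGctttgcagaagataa
Tyrp1: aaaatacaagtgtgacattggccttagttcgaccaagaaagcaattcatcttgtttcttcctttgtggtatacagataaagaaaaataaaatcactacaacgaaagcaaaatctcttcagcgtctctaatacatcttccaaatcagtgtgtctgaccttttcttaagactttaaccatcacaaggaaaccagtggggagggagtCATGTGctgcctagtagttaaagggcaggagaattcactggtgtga
Dct: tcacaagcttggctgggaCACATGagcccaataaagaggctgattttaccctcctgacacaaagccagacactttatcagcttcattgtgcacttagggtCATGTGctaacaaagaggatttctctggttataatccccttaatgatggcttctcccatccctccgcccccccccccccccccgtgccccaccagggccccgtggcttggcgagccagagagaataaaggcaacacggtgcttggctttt

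The match began 21 bases before the start in Tyr (position -21), at -46 in Tyrp1, and at -150 in Dct. Dct held another match at -232, on the opposite strand. None of the 3 Mitf windows held these letters. A window with CATGTG is common, being 14.2% of all 32851 windows. In Tyr, Tyrp1 and Dct the core stood inside the longer run TCATGTGCT, which overlaps it and was found in 0.408% of all windows. The longer run was in 3 of the 4 pigment genes with a window and in 0 of 50 other genes of the pathway with one. Its letters were set by hand and were not the outcome of a search, so these counts are no test of enrichment. A related core, CACGTG, was in 0 of the 4 pigment genes, in 13 of the 50 other pathway genes and in 7.15% of all windows. These matches describe the letters in the windows and are not measurements of binding.

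**Figure D1:**
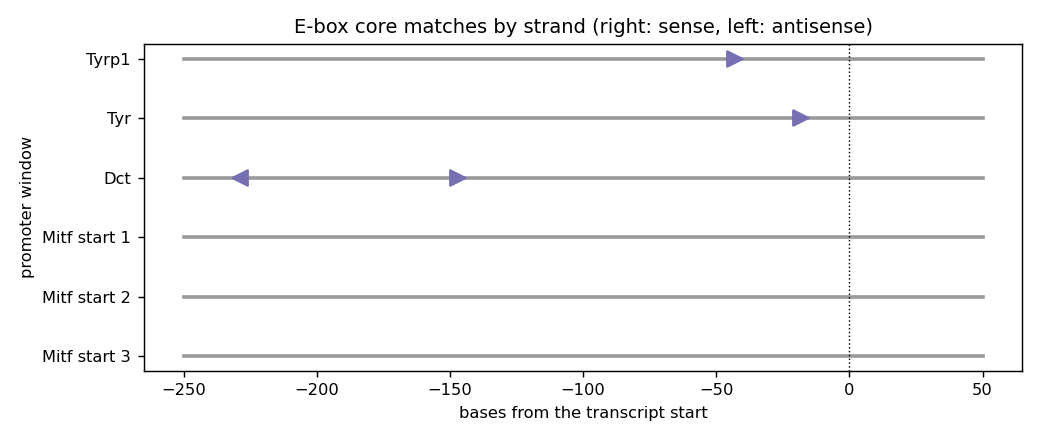
Position of E-box core matches in promoter windows of pigment cell genes. The x axis gives bases from the transcript start (dotted line), each grey line is 1 window, and arrowheads show the strand. Tyr, Tyrp1 and Dct hold matches upstream of the start and the 3 Mitf windows hold none.

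All values are log2 intensities, and for genes with several probe sets these are numbered from the highest mean signal. Levels can be compared between samples for 1 probe set, but signals of different probe sets are not transcript amounts. Differences were tested with limma across all 22626 probe sets, with p-values adjusted over all of them (two-sided, Benjamini-Hochberg), and a probe set was called when the adjusted p was below 0.05. The p-values set each difference between the groups against the spread of these samples within the groups, which limma moderates across all probe sets.

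Of the 12 probe sets, 5 were called lower in dnBrg1 lenses, 0 were called higher and 7 were not called. These 5 belong to Mitf, Tyrp1 and Gpr143, whereas no probe set of Tyr, Dct or Slc45a2 was called. Changes were common on these arrays, with 21.0% of all probe sets called lower, 19.8% called higher and 40.8% called in either direction. At an unadjusted p below 0.05, 1 of the 12 was higher (Tyr probe set 1) by limma and 0 by the methods' t-test, where 23.0% and 21.7% of all probe sets were higher. The median log2 fold change of dnBrg1 over wild type was -0.52 over the 12 probe sets and -0.08 over all probe sets. The difference was below 0 for 9 of the 12 probe sets and above 0 for 3. Taking each gene on its brightest probe set, 3 of 6 genes were called lower, against 23.3% of all 12393 genes.

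**Figure D2:**
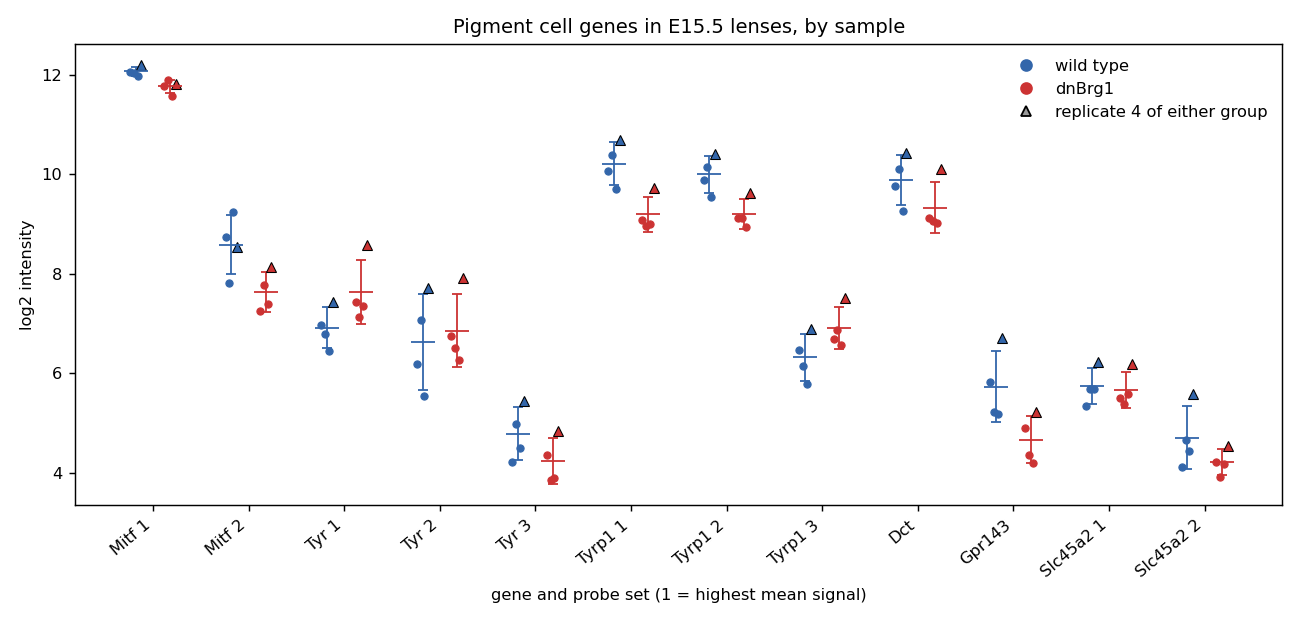
Log2 intensity (y axis) of each pigment gene probe set (x axis) in the 4 wild type (blue) and 4 dnBrg1 (red) samples. Horizontal bars are group means, error bars are 1 SD, and triangles mark replicate 4 of either group, which is the highest of its group in all but Mitf probe set 2 in wild type and Mitf probe set 1 in dnBrg1.

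Mitf, the regulator of the group, gave the highest signal of the 6 genes and was lower in dnBrg1 lenses by 1.23-fold. Its brighter probe set (1455214_at) read 12.06, 12.04, 11.98 and 12.20 in wild type replicates 1 to 4 and 11.78, 11.90, 11.58 and 11.81 in dnBrg1 replicates 1 to 4. Every dnBrg1 sample lay below every wild type sample, which held for no other of the 12 probe sets and for 20.6% of all probe sets. In 0 of the 12 did every dnBrg1 sample lie above wild type, against 19.5% of all probe sets, and 40.1% of all probe sets had groups without overlap in one direction or the other. The log2 fold change was -0.30 ± 0.11 (SE, 95% CI -0.54 to -0.06) with an adjusted p of 0.046 by limma. The dimmer Mitf probe set (1422025_at) read 8.75, 7.81, 9.24 and 8.53 in wild type and 7.25, 7.78, 7.39 and 8.14 in dnBrg1. Here wild type replicate 2 was low and dnBrg1 replicate 4 was high, so that the groups overlapped. The difference was a 1.93-fold lower signal in dnBrg1 (log2 fold change -0.95 ± 0.30, SE, adjusted p = 0.031 by limma). Both calls depended on which samples were kept, since each was lost in 6 of the 8 fits that left out 1 sample: the first without wild type replicates 1, 2 or 4 or dnBrg1 replicates 1, 3 or 4, and the second without wild type replicates 1, 3 or 4 or dnBrg1 replicates 1, 2 or 3 (limma adjusted p up to 0.12 and 0.080). The log2 fold changes in those fits ranged from -0.24 to -0.31 and from -0.73 to -0.99.

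Tyrp1 fell in the readings of its brighter pair of probe sets. Probe set 1 (1439409_x_at) read 10.07, 10.39, 9.71 and 10.70 in wild type replicates 1 to 4 and 9.08, 8.97, 9.0002 and 9.73 in dnBrg1. The first 3 dnBrg1 samples lay below every wild type sample and replicate 4 of dnBrg1 lay just above the lowest of them. Tyrp1 signal was 2.03-fold lower in dnBrg1 on this probe set (log2 fold change -1.02 ± 0.24, SE, 95% CI -1.56 to -0.49, adjusted p = 0.0073 by limma). Its suffix marks, in the array maker's naming, probes that can be shared with other sequences. Probe set 2 (1415861_at), which has no such mark, read 9.88, 10.16, 9.54 and 10.41 in wild type and 9.12, 9.12, 8.94 and 9.63 in dnBrg1. It was 1.74-fold lower (log2 fold change -0.80 ± 0.21, SE, adjusted p = 0.013 by limma). Both calls held in all 8 fits that left out 1 sample.

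The dimmest Tyrp1 probe set, however, did not fall. Probe set 3 (1415862_at) read 6.47, 6.14, 5.77 and 6.89 in wild type and 6.69, 6.87, 6.56 and 7.52 in dnBrg1. Its log2 fold change was 0.59 ± 0.27 (SE, 95% CI -0.02 to 1.20, adjusted p = 0.11 by limma), and it was called higher without wild type replicate 4 (0.78, adjusted p = 0.043). The annotation gives Tyrp1 alone for all 3 probe sets, and the difference between them was not tested.

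Tyr, which encodes the enzyme that starts melanin synthesis, was not called on any of its 3 probe sets. Probe set 1 (1417717_a_at) read 6.97, 6.78, 6.45 and 7.44 in wild type and 7.43, 7.14, 7.36 and 8.58 in dnBrg1. It was the only Tyr probe set with an interval of the difference above 0 (log2 fold change 0.72 ± 0.32, SE, 95% CI 0.0030 to 1.44), and its adjusted p was 0.0997 by limma. Probe set 2 (1456095_at) read 6.18, 7.07, 5.54 and 7.72 in wild type and 6.74, 6.51, 6.26 and 7.91 in dnBrg1. With this spread the log2 fold change of 0.22 had an interval from -0.88 to 1.33 and no difference was detectable. Probe set 3 (1448821_at) was dimmer, with 4.22, 4.97, 4.50 and 5.44 in wild type and 4.36, 3.86, 3.89 and 4.83 in dnBrg1. Its log2 fold change was -0.55 ± 0.29 (SE, adjusted p = 0.17 by limma), so the Tyr probe sets differed in sign.

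Dct, which encodes the dopachrome tautomerase, was not called in all 8 samples and turned on 1 of them. It read 9.76, 10.11, 9.26 and 10.42 in wild type replicates 1 to 4 and 9.13, 9.07, 9.02 and 10.10 in dnBrg1. The first 3 dnBrg1 samples lay below every wild type sample, whereas replicate 4 was among the higher wild type values. The log2 fold change was -0.56 ± 0.30 (SE, 95% CI -1.23 to 0.12, adjusted p = 0.16 by limma). Without dnBrg1 replicate 4 it was -0.82 with an adjusted p of 0.036, and Dct was then called lower.

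Gpr143, the melanosome receptor, was called lower at a dim mean signal of 5.20, which genes of organs outside the eye also reach on these arrays. It read 5.83, 5.22, 5.18 and 6.70 in wild type and 4.89, 4.36, 4.19 and 5.22 in dnBrg1 (1420581_at). Again dnBrg1 replicate 4 reached the lower wild type samples. The log2 fold change was -1.07 ± 0.35 (SE, 95% CI -1.86 to -0.27, adjusted p = 0.036 by limma). The call was lost without wild type replicates 1 or 4 or dnBrg1 replicates 1, 2 or 3, with log2 fold changes from -0.74 to -1.14 and adjusted p from 0.053 to 0.096. It was also lost when 16 was added to each intensity (-0.75, adjusted p = 0.060), which damps differences of dim probe sets.

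Slc45a2, the melanosomal transporter, showed no detectable difference. Its brighter probe set (1451055_at) read 5.35, 5.68, 5.69 and 6.22 in wild type and 5.50, 5.38, 5.58 and 6.18 in dnBrg1, and the groups overlapped almost completely. The log2 fold change was -0.08 ± 0.22 (SE, 95% CI -0.57 to 0.42, adjusted p = 0.80 by limma). The dimmer Slc45a2 probe set (1437430_at) ranged from 4.12 to 5.59 in wild type and from 3.90 to 4.54 in dnBrg1, with a log2 fold change of -0.49 ± 0.29 (SE, adjusted p = 0.20 by limma).

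**Figure D3:**
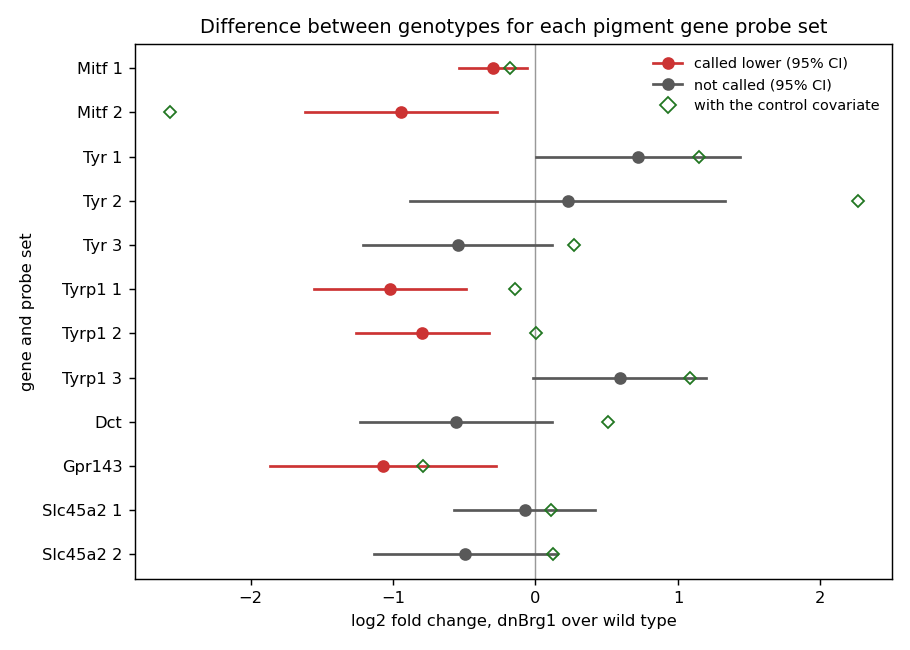
Log2 fold change of dnBrg1 over wild type (x axis) for each pigment gene probe set (y axis), with 95% confidence intervals. Red marks the 5 probe sets called lower, grey the 7 not called, and open diamonds give the value from the fit with the control covariate, which is near 0 for both brighter Tyrp1 probe sets.

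How far these signals stand above background was judged from 23 genes of organs outside the eye, measured on the same arrays. Their mean signals ran from 2.56 to 7.27 with a median of 3.98. Mitf, Dct and the brighter pair of Tyrp1 probe sets lay above this range. The top of the range was set by 1 gene, and the second highest had 6.41. Tyr probe set 1 was at the upper end of the range with a mean signal of 7.27. Tyr probe set 2 (6.74) and Tyrp1 probe set 3 (6.62) lay between the 2 highest of these genes. Tyr probe set 3, Gpr143 and Slc45a2 lay further within the range. Of the 12 probe sets, 5 were at or above 7.69, the median signal of all probe sets.

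Apart from genotype, the pigment cell genes shared a pattern over the samples. In wild type, replicate 4 had the highest value of its group for 11 of the 12 probe sets, against 26.1% of all probe sets. In dnBrg1, replicate 4 was likewise the highest for 11 of 12, against 20.6% of all probe sets. Both held for 10 of the 12, against 5.27% of all probe sets. The exceptions were the Mitf probe sets: Mitf probe set 2 was highest in wild type replicate 3, and Mitf probe set 1 was highest in dnBrg1 replicate 2. The 12 probe sets are readings of only 6 genes, several read more than once, so these counts are not of independent observations. Neither the labels nor the methods say whether the same number in the 2 groups marks a shared litter or batch.

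**Figure D4:**
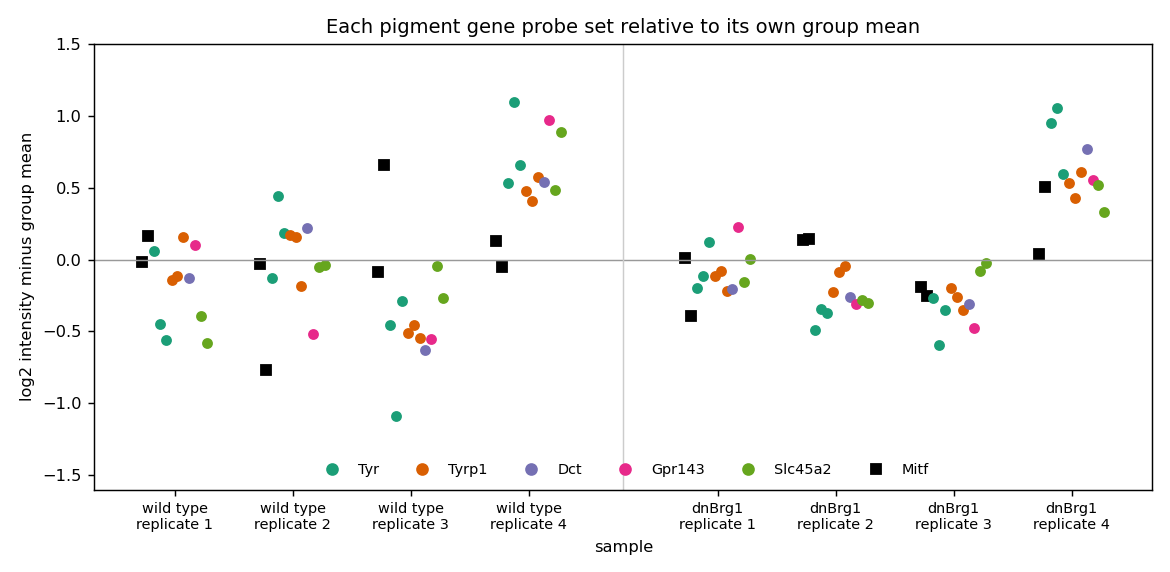
Log2 intensity of each pigment gene probe set minus its group mean (y axis) in each of the 8 samples (x axis), coloured by gene, with Mitf as black squares. In both groups replicate 4 lies above the mean for all 10 probe sets other than those of Mitf, and wild type replicate 3 lies below it for the same 10.

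Leaving out replicate 4 of both groups left 3 of the 12 probe sets called lower, the brighter pair of Tyrp1 (-1.04 and -0.80, adjusted p 0.0067 and 0.016 by limma) and Gpr143 (-0.93, adjusted p = 0.030). Of all probe sets, 12.9% were called lower in that fit. Tyr probe set 1 was then called higher (0.58, adjusted p = 0.042), while 15.1% of all probe sets were, and 28.0% were called in either direction. Both Mitf probe sets lost their call (-0.27 and -1.13, adjusted p 0.17 and 0.051).

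The genes whose pattern over the 8 samples was most like that of the pigment genes were sought for Tyr probe set 2, which had the largest SD of the 12 (0.80). After each probe set was centred on its mean, the root mean square difference was smallest for Dlk1 (0.37), a transmembrane protein of the Notch ligand family, for the kinase gene Nrk (0.38) and for Sema5a (0.38), which encodes a semaphorin. Mmp23, a metalloproteinase gene, followed with 0.38. Pmel, which encodes the protein of the fibrils on which melanin is laid down, was the fifth with 0.39. Of the pigment genes, Tyr probe set 1, Tyrp1 probe set 3 and Dct were near it with 0.49, 0.49 and 0.51. Tyr probe set 3 and both Slc45a2 probe sets followed with 0.55, 0.55 and 0.60. The brighter Tyrp1 probe sets were farther, with 0.75 for probe set 1 and 0.68 for probe set 2, as was Mitf probe set 1 with 0.74. Gpr143 stood at 0.81, about the median over all probe sets, which was also 0.81, and Mitf probe set 2 differed by 1.10. The points are 8 samples of 2 groups, so likeness here includes both the difference between groups and the spread within them.

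A property of the RNA moved with genotype on these arrays. On each array the signal from the 3′ end of the Gapdh and β-actin control transcripts was set against that from their 5′ end. The mean log2 difference of both ran from 1.43 to 2.66 in wild type and from 0.59 to 0.65 in dnBrg1, with no overlap. With this value as a covariate, 1 of the 12 probe sets was called, Mitf probe set 2 (log2 fold change -2.57, adjusted p = 0.023 by limma). Of all probe sets, 2.8% were called lower in that fit and 3.57% higher, together 6.37%. The values for the brighter Tyrp1 probe sets became -0.14 and 0.00041, Gpr143 became -0.79 and Mitf probe set 1 became -0.18. The sign turned for 5 of the 12 probe sets. The covariate nearly follows genotype, so its part in these differences cannot be told apart from that of the transgene.

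The fits with either pair of dnBrg1 samples bear on the difference in their descriptions. Against dnBrg1 replicates 1 and 2 alone, 2 of the 12 probe sets were called lower by limma and 11.5% of all probe sets were. Against replicates 3 and 4 alone 0 of the 12 were, and 12.5% of all. At an unadjusted p below 0.05, 3 were lower and 1 higher in the latter fit, where 20.5% and 18.9% of all probe sets were. The brighter Tyrp1 probe sets had -0.85 and -0.71 in it (adjusted p 0.084 and 0.11). The brightest Mitf probe set had log2 fold changes of -0.23 and -0.37 in these fits, and neither was called.

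Other genes of the pathway were described from 4 lists of melanosome proteins, melanosome transport, the building of lysosome-related organelles, and regulators and signals, each gene on its brightest probe set. Of 59 genes listed, 47 were measured, and 2 were called higher, 11 lower and 34 not. Their median log2 fold change was -0.10, against -0.11 over all genes on 1 probe set, of which 17.5% were called higher and 23.3% lower. The share called lower was thus near that of all genes. Second probe sets, present for 22 of these genes, gave 5 called higher and 4 lower. On the brightest probe sets and with the control covariate, Myo10 and Pomc kept their calls and the other 11 called genes lost theirs. Among the genes named below, Cited1, Myo10, Mlph, Hps1 and Tfeb had mean signals within the range of genes from outside the eye. Of these, Myo10 (6.61) lay above the second highest of those genes (6.41).

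Among 10 other melanosome proteins, 2 rose and 1 fell. Rab38, a small GTPase that helps carry tyrosinase and Tyrp1 to melanosomes, read 8.91, 8.85, 8.90 and 8.73 in wild type and 9.55, 9.56, 9.87 and 9.53 in dnBrg1. It rose by 1.72-fold with no overlap (adjusted p = 0.00048 by limma), and the log2 fold change moved from 0.78 to 0.66 with the covariate (adjusted p = 0.16). Cited1, a transcriptional coregulator, was called higher with 0.86 on the log2 scale (adjusted p = 0.043), but the value was -0.58 with the control covariate and the call was lost in 6 of the 8 fits without 1 sample, those without wild type replicates 2 or 4 or any 1 dnBrg1 replicate (adjusted p from 0.070 to 0.0996). Atp7a, the copper transporter that supplies tyrosinase, was called lower with -0.54 (adjusted p = 0.0099). Its dimmer probe set had 0.93 and was not called (adjusted p = 0.053).

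Pmel was not called. It read 9.74, 9.997, 8.89 and 10.46 in wild type and 9.32, 9.07, 9.22 and 10.23 in dnBrg1, with replicate 4 again the highest of each group. Its log2 fold change was -0.32 ± 0.35 (SE, adjusted p = 0.49 by limma). Oca2, a melanosomal ion transport protein, and Gpnmb, a relative of Pmel, had values of -0.03 and -0.06 and were not called.

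Of 8 genes of melanosome transport, 2 fell. Myo10, a filopodial myosin, was 3.48-fold lower (log2 fold change -1.80 ± 0.20, SE, adjusted p = 0.00014 by limma) and kept its call with the control covariate (-2.87, adjusted p = 0.011). The dimmest Myo10 probe set was called in the opposite direction (0.87, adjusted p = 0.00089) and also kept its call with the covariate (1.26, adjusted p = 0.049 by limma). The remaining Myo10 probe set was not called (0.26). Mlph, the adaptor that links melanosomes to their myosin motor, was 1.54-fold lower (adjusted p = 0.018), at a dim signal of 4.78, and was not called without dnBrg1 replicate 3 (adjusted p = 0.053). Of 15 genes for the building of lysosome-related organelles, 5 fell. The largest difference was that of Hps4, a subunit of the BLOC-3 complex, which read 9.73, 10.01, 9.003 and 9.47 in wild type and 7.57, 7.87, 7.86 and 7.64 in dnBrg1. The groups were well apart, with a 3.54-fold lower signal in dnBrg1 (adjusted p = 0.00013), but with the control covariate the log2 fold change moved from -1.82 to -0.80 and the call was lost (adjusted p = 0.18). Hps1, the partner of Hps4 in this complex, was 1.30-fold lower (adjusted p = 0.016). Bloc1s5 and Bloc1s4, subunits of BLOC-1, were 2.09-fold and 1.68-fold lower (adjusted p 0.0021 and 0.00088). With the covariate Bloc1s5 moved from -1.06 to -0.15 and Bloc1s4 from -0.75 to -0.57, and neither was called (adjusted p 0.84 and 0.24). Ap3m1, of the AP-3 adaptor, was called lower with -0.36 (adjusted p = 0.013), but its 2 dimmest probe sets were called higher with 0.38 and 1.30 (adjusted p 0.017 and 0.00024).

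Of 14 regulators and signals, 3 fell and 11 were not called, each gene on its brightest probe set. Pomc, the precursor of the melanocyte-stimulating hormone, read 9.36, 9.06, 9.05 and 9.16 in wild type and 6.78, 6.98, 7.47 and 6.81 in dnBrg1. This was the largest difference of the 4 lists, 4.43-fold lower in dnBrg1 (adjusted p = 2.4e-05 by limma). The brightest Pomc probe set was called in all 20 other fits run for it. Like the brightest Tyrp1 probe set, it carries the suffix for probes that can be shared with other sequences. The dimmer Pomc probe set was called lower by 1.84-fold (log2 fold change -0.88, adjusted p = 0.0058 by limma). With the control covariate the dimmer probe set had -1.50 and was not called (adjusted p = 0.080). Creb1, a factor that responds to cyclic AMP, was called lower on its brightest probe set with -0.76 (adjusted p = 0.0058), whereas the next 2 Creb1 probe sets were called higher with 0.46 and 0.93. Tfeb, a relative of Mitf, was called lower with -0.55 (adjusted p = 0.020), a call lost without wild type replicate 4, dnBrg1 replicate 3 or dnBrg1 replicate 4 (adjusted p from 0.051 to 0.056).

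**Figure D5:**
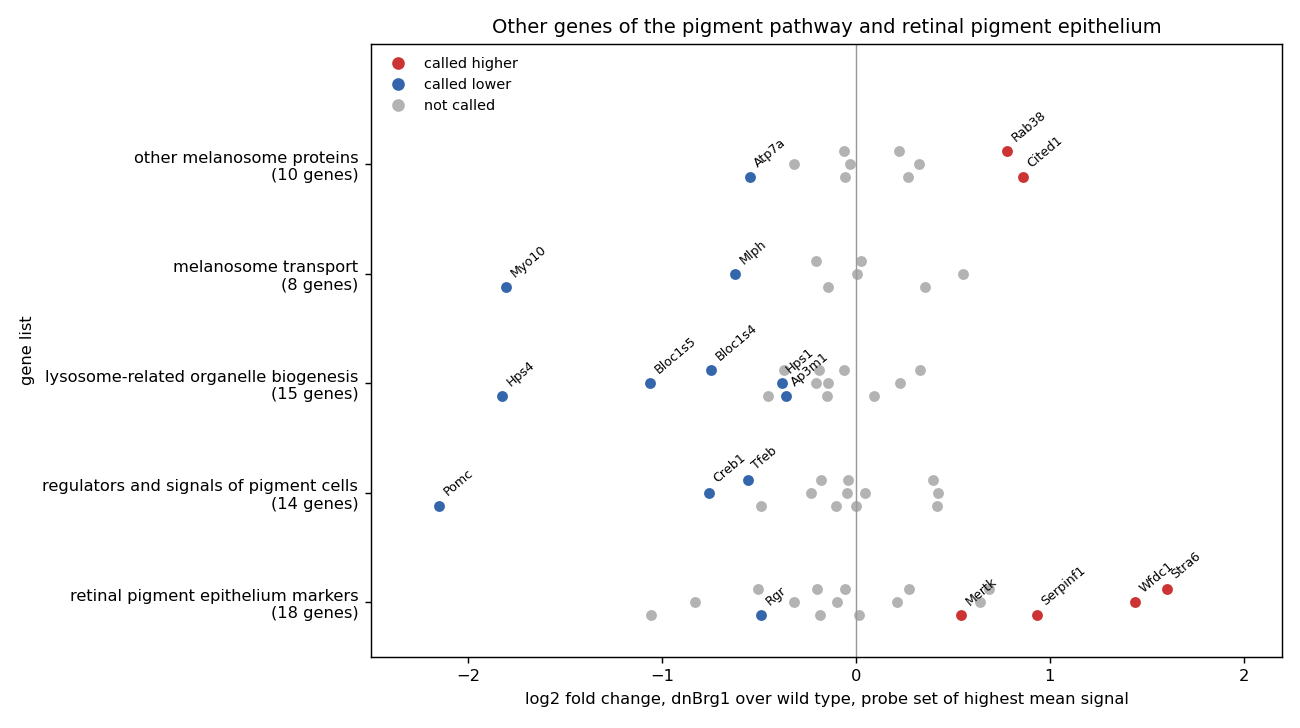
Log2 fold change of dnBrg1 over wild type (x axis) for other pathway genes and retinal pigment epithelium markers, grouped by list (y axis), with each gene on its brightest probe set. Red points were called higher, blue lower and grey not called, and the called genes are named. Pomc, Hps4 and Myo10 lie farthest to the left, Stra6 and Wfdc1 farthest to the right.

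Markers of the cells in which pigment genes are known to be active were set beside these results. Of 18 measured markers of the retinal pigment epithelium, 4 were called higher, 1 lower and 13 not, with a median of -0.02. The share called higher was near that of all genes, 17.5%. Stra6, the receptor for retinol-binding protein, read 8.81, 8.85, 8.99 and 8.92 in wild type and 10.43, 10.45, 10.71 and 10.38 in dnBrg1. It rose by 3.04-fold (adjusted p = 1.5e-05 by limma) and kept its call with the control covariate (1.47, adjusted p = 0.019). Wfdc1 rose by 2.71-fold and Serpinf1, the gene of pigment epithelium-derived factor, by 1.91-fold (adjusted p 0.00033 and 0.0026). Both lost their call with the covariate, Wfdc1 moving from 1.44 to 0.55 on the log2 scale and Serpinf1 from 0.94 to 0.36 (adjusted p 0.36 and 0.63). Mertk, the receptor used to engulf photoreceptor outer segments, rose by 1.46-fold (adjusted p = 0.025), a call lost without dnBrg1 replicate 1 or 3 (adjusted p 0.054 and 0.069) and with the covariate (adjusted p = 0.061). Its mean signal of 6.57 lay within the range of the genes from outside the eye, though above the second highest of them (6.41). The called marker that fell, Rgr, had a mean signal of 3.003, within the same range, and was not called without dnBrg1 replicate 4 (adjusted p = 0.055).

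The summed signal of the retinal pigment epithelium list, as log2 of summed intensities, was 12.99 to 13.35 in wild type and 13.36 to 13.63 in dnBrg1, while that of the 6 pigment cell genes was 12.47 to 12.98 in wild type and 12.08 to 12.56 in dnBrg1. These sums are carried by the brightest genes of each list. Rpe65 and Lrat, enzymes of the visual cycle that define the mature epithelium, had mean signals of 3.53 and 4.16, inside the range of genes from outside the eye. Otx2, a factor of this epithelium and of neural retina, had 9.70 and was not called (log2 fold change 0.21).

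Of 9 measured neural crest melanocyte markers, 1 was called lower and 8 were not called, where 23.3% of all genes were called lower. The called gene was Ngfr, a neurotrophin receptor gene (-0.83, adjusted p = 0.0027 by limma), which was not called with the covariate (-0.29). Sox10, Pax3 and Foxd3, which define neural crest cells, had mean signals of 5.53, 3.59 and 3.18, all within the range of genes from outside the eye. Over the 9 markers the median signal was 6.16, and the highest, 8.08, lay above that range. The summed list was 9.67 to 10.08 in wild type and 9.40 to 9.86 in dnBrg1.

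Of 13 measured markers of neural retina and optic cup, 8 were called lower and 5 were not called, where 23.3% of all genes were called lower. With the control covariate none of the 8 was called, against 342 of the 12393 genes called lower in that fit (limma). Their summed signal ran from 14.79 to 15.09 in wild type and from 14.25 to 14.58 in dnBrg1, with no overlap. Hes5, a target of Notch signalling, was 4.27-fold lower, and Atoh7, the factor of retinal ganglion cell precursors, read 12.11 to 12.24 in wild type and 10.87 to 11.33 in dnBrg1 (adjusted p 0.00015 and 0.00013 by limma, and 0.063 and 0.065 with the covariate). The part of retinal tissue in the lower Mitf, Tyrp1 and Gpr143 signal was not tested. Of 11 markers of mesenchyme around the eye and of cornea, 0 were called by limma in either direction (2 higher and 1 lower at an unadjusted p below 0.05, and 0 by the methods' t-test), and their summed signal ran from 11.43 to 12.42 in wild type and from 10.61 to 13.44 in dnBrg1. The lens itself was well represented, with a median signal of 13.65 over 13 lens markers and summed signals of 17.16 to 17.27 in wild type and 17.13 to 17.26 in dnBrg1. In this list 3 were called higher and 3 lower, against 17.5% and 23.3% of all genes, with a median log2 fold change of -0.03. The 2 called genes with the largest differences, Bfsp1 and Gja3, of the fiber cell cytoskeleton and gap junctions, were both among those that rose. Their log2 fold changes were 1.54 and 1.53 (adjusted p 8.5e-05 and 0.00024 by limma). Neither was called with the covariate (0.85 and 1.15, adjusted p 0.12 and 0.17).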

How the data were processed

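Gene expression was measured in 8 lens samples, 4 wild type and 4 dnBrg1, on an Affymetrix mouse genome array of 22690 probe sets. The deposited values are intensities that the authors normalized by RMA from all arrays together, on a linear scale from 3.64 to 28468.2, with array medians of 196.9 to 209.1. RMA combines the probes of a probe set and makes the distributions of the arrays alike, so a change shared by most genes would be removed. The number of arrays limits the precision. No column of the authors' own comparisons was used.

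Intensities were taken to log2, 64 control probe sets were left out, and lmFit and eBayes of limma 3.58.1 (R 4.3.3) compared the groups over the other 22626, after the procedure was tested on simulated data. The platform annotation named 1 gene for 20380 of these, several for 691 and none for 1555. No 2 samples were duplicates. The methods name Student t together with SAM; SAM was not run here. Genes were named by rule: all pigment cell genes, the called genes of each list with the largest differences on the brightest probe set (up to 5, or up to 2 for other marker lists), and the 5 probe sets most like Tyr probe set 2. Pmel, Oca2, Gpnmb, Ap3b1, Otx2, Rpe65, Lrat, Sox10, Pax3 and Foxd3 were added after their values were seen. The genes and lists were chosen with earlier results of these data known. Pmel and Trpm1 stand in both the melanosome and the retinal pigment epithelium list, and Sox10, Pax3 and Kit in both the regulator and the neural crest list. Promoter windows came from RefSeq, which held windows for 50 of 59 other pathway genes.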

Additional observations from a re-analysis of the deposited data

Results flagged for a closer look

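In groups of 4 samples, a sample far from the other 3 was sought by the gap to its neighbour over the range of the group, against Dixon's 95% critical value. Of 70 groups tested, 4 passed, and chance alone passes about 1 in 20 groups. The brightest Tyrp1 probe set was high in dnBrg1 replicate 4 (log2 intensity 9.73, gap 0.852 of the range). Dct was high in the same sample (10.1, gap 0.903). Rab38 was high in dnBrg1 replicate 3 (9.87, gap 0.918), and Mertk was low in wild type replicate 3 (5.86, gap 0.852).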

How the results depend on the processing

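Of all probe sets, 9229 were called, 5640 with dnBrg1 replicates 1 and 2 alone, 5936 with replicates 3 and 4 alone and 1442 with the control covariate. Of the 12 pigment gene probe sets, 5 were called lower. This count was 2 with dnBrg1 replicates 1 and 2 alone, 0 with replicates 3 and 4 alone, 1 with the covariate, 3 with the methods' t-test after Benjamini-Hochberg adjustment (5 at their unadjusted threshold), 3 without replicate 4 of both groups (an alternative chosen after seeing the data), and 2 to 5 when 1 sample was left out. None was called higher, against 1 without replicate 4 of both groups and 0 to 1 when 1 sample was left out.

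Of other pathway genes, 2 were called higher. There was 1 after centring on array medians, after quantile normalization, with either pair of dnBrg1 samples alone, with the covariate, by the methods' t-test after adjustment and without replicate 4 of both groups, 5 on second probe sets (of 22 genes), and 1 to 6 when 1 sample was left out, with 6 without wild type replicate 3. The gene called higher with the covariate was Ap3b1, whose log2 fold change turned from -0.45, not called, to 0.91. Neither Rab38 nor Cited1 kept its call there. Of the same genes 11 were called lower, against 7 on bright probe sets only, 7 with either pair of dnBrg1 samples, 2 with the covariate and 4 on second probe sets. Retinal pigment epithelium markers gave 5 calls, against 3 on bright probe sets, 3 with dnBrg1 replicates 1 and 2 alone, 1 with the covariate, 3 on second probe sets, and 4 to 9 when 1 sample was left out, with 9 without wild type replicate 3.

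Directions turned with the covariate for Tyr probe set 3 (0.27), Tyrp1 probe set 2 (0.00041), Dct (0.51), both Slc45a2 probe sets (0.11 and 0.12), Cited1 (-0.58) and Rgr (0.14). Tyr probe set 2 ranged from -0.14 to 0.59 when 1 sample was left out, with -0.14 without wild type replicate 3 and -0.13 without dnBrg1 replicate 4, and was -0.0049 with dnBrg1 replicates 1 and 2 alone. Slc45a2 probe set 1 ranged from -0.25 to 0.0855, with 0.0855 without wild type replicate 4 and 0.018 without dnBrg1 replicate 2, and was 0.14 with dnBrg1 replicates 3 and 4 alone. The cause was not tested. Over all alternatives, pigment gene probe sets gave 181 values of the same direction and call, 35 that lost a call, 6 that gained one and 11 of the opposite direction.

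Whether samples of the 2 groups with the same number share a litter or batch is not stated, and 4 pairs cannot decide it. The deviations of samples with the same number correlated from -0.19 to 0.16, with 1 of 4 pairs above 0.1. Wild type replicate 1 correlated best with dnBrg1 replicate 4 (0.20). With the replicate number as a block, 2 pigment gene probe sets were called higher and 4 lower, and 7963 of all probe sets were called.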
